A study of Homo sapiens with 2 samples.

Results

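The fibroblast growth factor (FGF) receptor family was examined in R-HL60, a cytarabine-resistant line, set against its parent HL60, a promyelocyte-like line from acute myeloid leukaemia. The family was taken as 8 genes: the receptor tyrosine kinase genes FGFR1, FGFR2, FGFR3 and FGFR4, the kinase-less receptor gene FGFRL1, the ligand gene FGF2, and the docking adaptor genes FRS2 and FRS3. They were found by their names in the deposited files, where they had 14 of the 58201 probes, out of 43270 genes and transcripts in all. R-HL60 was derived from HL60 by prolonged culture in rising concentrations of cytarabine, a nucleoside analogue that blocks DNA synthesis, and HL60 was labelled as untreated. Both were kept in the same serum-supplemented medium, and the sources used here do not say whether cytarabine was present when R-HL60 was harvested. Each line was represented by 1 one-colour Agilent array, so the comparison has no replicates, no test and no error between cultures, and line and array cannot be told apart. The family was chosen by the log2 differences of these same arrays, already known, so its values are descriptions.

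FGF ligands bind FGF receptors together with heparan sulfate chains on the cell surface, and the receptors then pair and phosphorylate each other. The adaptors FRS2 and FRS3 link the receptors to GRB2 and PTPN11, which lead to RAS and the ERK kinases. Phospholipase C gamma binds the receptors directly. ERK signalling in turn raises Sprouty and dual-specificity phosphatase genes, which limit the pathway. In blood cancers FGFR1 is known as a partner in gene fusions of a myeloproliferative disease, and FGFR3 is translocated in some myelomas.

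Promoter sequences from RefSeq (GRCh38.p14, 250 bases before to 50 bases after a start) were matched for 7 of the 8 genes, at 12 start sites. FGFR1 was the gene without a match, so the counts below leave it out, and 5 of the 12 sites belong to FGFR2. The sequences of FGFRL1 and FRS2 are shown because each has a single start site in that table and a single probe above background on both arrays, with a lower signal in R-HL60. Capitals mark the GC box GGGCGG on either strand (CCGCCC on the printed strand), and overlapping matches were counted.
FGFRL1, chr4:1012214-1012513, plus strand: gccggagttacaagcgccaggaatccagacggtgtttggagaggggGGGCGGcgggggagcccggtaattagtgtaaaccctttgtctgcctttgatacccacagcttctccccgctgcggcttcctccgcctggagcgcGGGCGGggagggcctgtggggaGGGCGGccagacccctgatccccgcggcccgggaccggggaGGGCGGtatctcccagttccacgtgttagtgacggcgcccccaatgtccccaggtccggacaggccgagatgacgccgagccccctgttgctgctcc
FRS2, chr12:69470138-69470437, plus strand: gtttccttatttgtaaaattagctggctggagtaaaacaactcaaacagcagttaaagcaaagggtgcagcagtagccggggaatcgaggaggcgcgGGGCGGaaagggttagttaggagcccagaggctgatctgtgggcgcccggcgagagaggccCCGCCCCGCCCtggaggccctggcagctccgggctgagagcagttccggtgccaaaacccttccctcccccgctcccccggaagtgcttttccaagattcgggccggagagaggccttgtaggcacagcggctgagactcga
The FGFRL1 window held 4 GC boxes and 25 CpG dinucleotides at 68.3% G+C, and the FRS2 window held 3 GC boxes and 18 CpG dinucleotides at 61% G+C. A GC box was found at 8 of the 12 start sites of the family and in 45.0% of the 35116 windows of this length in the table. The motif TATAAA, on either strand, was found at 0 of the 12 sites and in 11.5% of all windows. G+C content ran from 47.3% to 86.3% over the 12 sites, against a median of 58.7% over all windows. These matches describe the letters only, and no binding was measured.

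Signals are linear intensities as deposited. The median signal, 32.8 on the R-HL60 array and 30.7 on the HL60 array, was used as the floor because the files used here hold no detection flags. For differences, each array was scaled to its own 75th percentile on the log2 scale, and every difference is R-HL60 minus HL60. Where a gene had more than 1 probe, its brightest stood for it. Of the 8 genes, 5 lay above the floor on both arrays (FGFR1, FGFR2, FGFR4, FGFRL1 and FRS2) and 3 on neither (FGFR3, FGF2 and FRS3). Of the 14 probes, 5 were above the floor on both arrays, 1 on the HL60 array only and 8 on neither. The error that could be measured was the spread between different probes of a gene, a pooled SD of 0.19 on the log2 scale over 4723 genes, from 0.28 among the dimmest to 0.12 among the brightest probes.

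FGFR1, the receptor for FGF2 and several other FGFs, was the one gene of the family at least 2-fold different. Its brightest probe had a signal of 66.0 on the R-HL60 array, against 731 on the HL60 array, a log2 difference of -3.48 or 11.1-fold lower in R-HL60. The R-HL60 signal stood at percentile 60.3 of its array, which is 2.01 times the floor, and the HL60 signal at percentile 81.5. The probe-to-probe SD at the mean brightness of both arrays was 0.17, and among the dimmest probes it was 0.28. Either SD is far smaller than the difference, but it leaves out the variation between cultures and arrays.

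A second FGFR1 probe gave a difference in the same direction. It had a signal of 18.9 on the R-HL60 array, below the floor, and 171 on the HL60 array. With the floor at the array's median, this probe puts FGFR1 at least 5.23-fold lower in R-HL60, and a higher floor would give a smaller bound. The remaining probe had 3.57 on the R-HL60 array and 3.59 on the HL60 array, both far below the floor, and gave no measured difference. The sources used here do not say which FGFR1 transcripts the probes match. In the authors' normalized values the brightest FGFR1 probe had 64.7 in R-HL60, against 726 in HL60, and the second probe had 18.1 in R-HL60, against 171 in HL60.

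**Figure D1:**
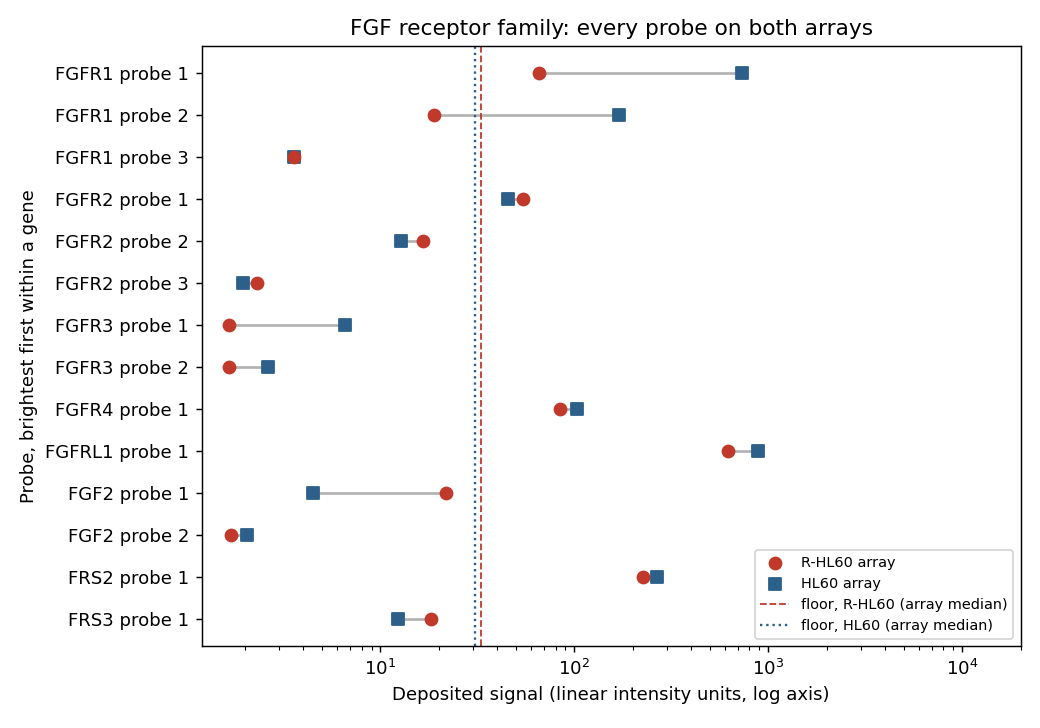
Deposited signal (linear intensity units, log axis) of each of the 14 probes of the family, with circles for the R-HL60 array, squares for the HL60 array and vertical lines at each array's median, used as the floor. The wide gaps above the floor belong to FGFR1 (66.0 in R-HL60 and 731 in HL60 for probe 1), while the gaps of FGFR3 and FGF2 lie wholly below the floor.

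The remaining kinase receptors had small differences or no measurable signal. FGFR4, a receptor for FGF19 with the co-receptor KLB, had 84.9 on the R-HL60 array and 103 on the HL60 array, a log2 difference of -0.28 against a probe-to-probe SD of 0.23. FGFR2, the receptor for FGF7 and FGF10 in epithelia, had 54.3 on the R-HL60 array and 45.3 on the HL60 array on its brightest probe, a difference of 0.25 against an SD of 0.28. The FGFR2 difference was smaller than that spread and the FGFR4 difference slightly larger.

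The dimmer FGFR2 probes had 16.6 and 2.31 on the R-HL60 array, against 12.8 and 1.96 on the HL60 array, below the floor throughout. FGFR3, a regulator of bone growth, had 1.66 and 1.66 on its 2 probes on the R-HL60 array, against 6.54 and 2.62 on the HL60 array. The 10th percentile of all probes was 1.66 on the R-HL60 array and 2.03 on the HL60 array, so the R-HL60 signals of FGFR3 were at the bottom of the scale and no fold is given.

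FGFRL1, which binds FGFs but lacks the kinase domain, was lower in R-HL60. Its single probe had 621 on the R-HL60 array and 889 on the HL60 array, a log2 difference of -0.53 or 1.44-fold, against a probe-to-probe SD of 0.14 at this brightness. Of the 21838 genes above the floor on both arrays, 1.68% had a difference this low or lower. It did not reach 2-fold.

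The ligand gene FGF2, which encodes basic FGF, had no signal above the floor. Its brighter probe had 21.9 on the R-HL60 array and 4.51 on the HL60 array, and its dimmer probe 1.69 on the R-HL60 array and 2.05 on the HL60 array. The brighter probe was thus higher in R-HL60 in a range where no fold is given, and the dimmer probe was at the bottom of the scale on both arrays. FRS2, the main docking adaptor of FGF receptors, had 227 on the R-HL60 array and 268 on the HL60 array, a log2 difference of -0.24 against a probe-to-probe SD of 0.17. Its relative FRS3 had 18.2 on the R-HL60 array and 12.4 on the HL60 array, below the floor on both.

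The count of 1 gene of 5 above the floor that was at least 2-fold lower stands beside 0.297% of the 23531 genes that exceeded the floor on either array, and the count of 0 at least 2-fold higher beside 0.786% (1.08% in either direction). By probes, 2 of the 6 that exceeded the floor on either array were at least 2-fold lower, beside 0.285% of all such probes, and 0 were higher, beside 0.705%. Since the family was chosen with these differences known, nothing is read from these counts. Over all genes 70 were at least 2-fold lower and 185 higher, or 91 lower and 129 higher when arrays were scaled to their medians. The median difference was -0.28 over the 5 genes and -0.03 over all genes above the floor on both arrays.

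**Figure D2:**
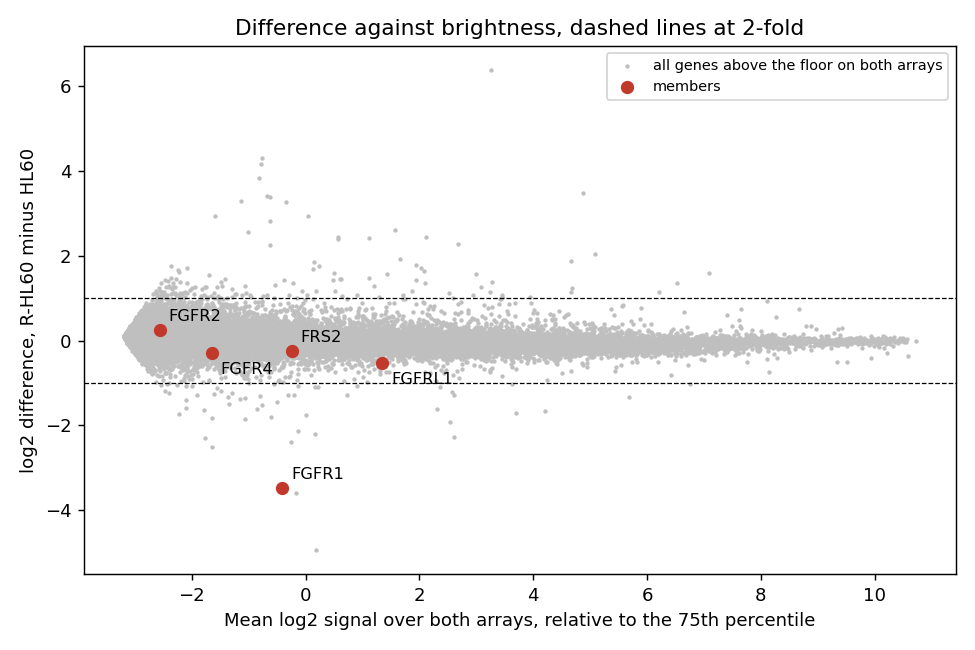
log2 difference (R-HL60 minus HL60) against mean log2 signal relative to the 75th percentile, for the 21838 genes above the floor on both arrays, with the 5 measurable genes of the family in red. FGFR1 lies at -3.48, far below the cloud, and FGFRL1 at -0.53 lies at its lower edge, inside the 2-fold lines.

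FGFR1 ranked 3 from the lowest among the differences of the 21838 genes, after CLC at -4.95 and PANTR1 at -3.60. Among the 2364 genes within 0.5 log2 units of its mean brightness, 2 had a difference this low, FGFR1 included. The genes closest to FGFR1 in both signals were sought by Euclidean distance over the 2 scaled log2 values. Only RefSeq symbols were searched, with clone names, predicted transcripts and some other name patterns left out. The closest were the non-coding gene PANTR1 (distance 0.37), the transporter gene SLC4A11 (0.80), the receptor phosphatase gene PTPRS (1.02), AEBP1 (1.21) and the neutrophil elastase gene ELANE (1.22). PANTR1 had 75.5 on the R-HL60 array and 910 on the HL60 array, and SLC4A11 had 107 on the R-HL60 array and 562 on the HL60 array. Likeness over 2 arrays means only similar signals on each.

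The neighbours of FGFR1 on chromosome 8 that were above the floor differed by less than 2-fold, as did nearly all genes. LETM2, the adjacent gene on one side, which encodes a mitochondrial inner-membrane protein, had 111 on the R-HL60 array and 93.8 on the HL60 array, a difference of 0.23. TACC1, the adjacent coding gene on the other side, which encodes a coiled-coil protein, had 3714 on the R-HL60 array and 3990 on the HL60 array, a difference of -0.11. Of the 5 coding genes on each side, 9 were above the floor on both arrays and 0 were at least 2-fold different, beside 1.08% of all genes. Their differences ran from -0.48 for PLPP5, a lipid phosphatase gene, to 0.23 for LETM2, with a median of -0.11. Both PLPP5 probes were lower in R-HL60, at -0.48 and -0.37. Within 20 coding genes on each side, 28 were above the floor on at least 1 array and again 0 were at least 2-fold different. The largest of the 26 differences measured on both arrays was that of ADRB3, at 0.66, with 61.2 on the R-HL60 array and 38.6 on the HL60 array. Among 32 genes of this arm listed for the analysis, 24 were above the floor on at least 1 array, 0 were past 2-fold and the median was -0.09. With 1.08% of all genes past 2-fold, these counts of 0 read no differently from the background. Gene order was taken from the RefSeq table of GRCh38.p14, and DNA copy number was not measured.

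**Figure D3:**
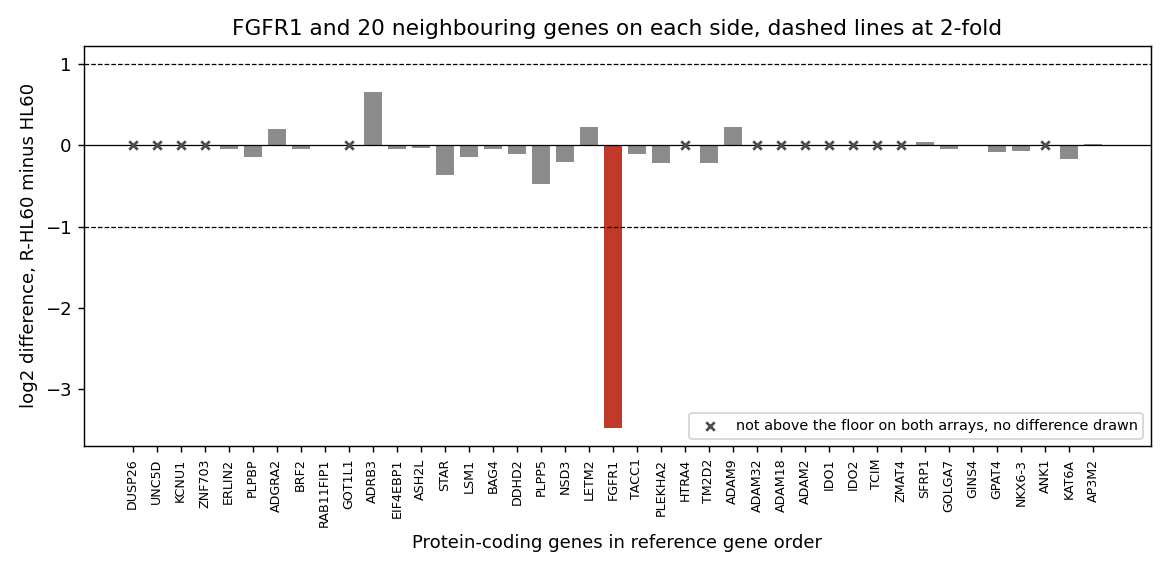
log2 difference (R-HL60 minus HL60) of FGFR1 (red bar, -3.48) and of 20 protein-coding neighbours on each side in reference gene order, with crosses for genes not above the floor on both arrays. The neighbours' bars run from -0.48 to 0.66 and stay inside the 2-fold lines.

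Several receptor genes of the family lie beside relatives of the same gene families, a feature named after the values were seen. The NSD genes, which encode histone H3 lysine methyltransferases, were close to equal on both arrays: NSD3 beside FGFR1 differed by -0.20, NSD2 beside FGFR3 by -0.03 and NSD1 beside FGFR4 by -0.23. Further probes of NSD3 differed by -0.12 and -0.00, those of NSD2 ranged from -0.09 to 0.23 and that of NSD1 differed by -0.35. TACC3, beside FGFR3, had 3146 on the R-HL60 array and 3572 on the HL60 array, a difference of -0.19, and LETM1, also beside FGFR3, had -0.06. FGFR3 was thus below the floor between neighbours with bright signals on both arrays. Within 5 coding genes on each side of the other 7 members, 0 neighbours above the floor were past 2-fold, beside 1.08% of all genes.

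The wider pathway was described by lists of genes that do not include the family. Of 17 FGF ligand genes 6 were above the floor on at least 1 array, and 0 were at least 2-fold different, near the 1.08% of all genes. The 4 above it on both arrays were FGF1, FGF3, FGF7 and FGF9. FGF9, with the largest difference of the 4, had 47.3 on the R-HL60 array and 52.7 on the HL60 array, a difference of -0.16 within the probe-to-probe SD of 0.28. The list of FGF homologous factors, intracellular relatives of the ligands, had 0 of 4 genes above the floor in rows carrying their own names. The row named FGF13 had 2.90 on the R-HL60 array and 5.73 on the HL60 array. A row that the files name LINC00889, a non-coding name now listed under FGF13, had 29.8 on the R-HL60 array, below the floor, and 40.2 on the HL60 array, above it.

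Genes of FGF binding at the cell surface came next. Of 17 co-receptor and binding genes, 10 were above the floor on at least 1 array and 7 on neither, among them the co-receptor genes KL and KLB. Of the 10, 0 were past 2-fold, where 1.08% of all genes were, so that the count reads no differently from the background, and the median difference was -0.16. NCAM1, an adhesion molecule that can bind FGFR1, had 1203 on the R-HL60 array and 1926 on the HL60 array, a difference of -0.69 or 1.61-fold lower, while its other measured probe gave -0.21. FGFBP3, a secreted FGF-binding protein, had 2205 on the R-HL60 array and 3006 on the HL60 array, a difference of -0.46. The syndecan gene SDC1 differed by -0.21. Of 12 enzymes that build, edit or cleave heparan sulfate, 8 were above the floor and 0 past 2-fold, with a median of -0.13. HS6ST1, a 6-O-sulfotransferase, had the largest difference, -0.48, with 2367 on the R-HL60 array and 3284 on the HL60 array.

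The signal relay downstream of the receptors was above the floor almost throughout. Of 31 genes from GRB2 and RAS to ERK, PI3 kinase and STAT factors, 30 were above the floor and 0 were past 2-fold, a share near the 1.08% of all genes. Their differences ran from -0.40 to 0.28, with a median of -0.05, against -0.03 over all genes. STAT5B and PIK3CB had the largest differences, -0.40 and -0.39. PTPN11, the phosphatase recruited by FRS2, had 7114 on the R-HL60 array and 7562 on the HL60 array, a difference of -0.10. Other docking adaptors with phosphotyrosine-binding domains (IRS, DOK and SHC genes) had 9 of 13 above the floor, 0 past 2-fold and a median of 0.04, and DOK1 differed by 0.01.

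Genes listed as restraining RAS and ERK signalling had differences on both sides of 0. The list holds ERK-induced phosphatase and Sprouty genes as well as inhibitors not known for induction by ERK, such as CBL, NF1 and RASA1. Also listed was LGALS3, at 0.03, whose role as an inhibitor was not checked. Of the 18 listed genes 16 were above the floor and 0 past 2-fold, beside 1.08% of all genes. Over the 14 above the floor on both arrays 8 differences were above 0 and 6 below it, with a median of 0.02. DUSP6, an ERK phosphatase, had 11088 on the R-HL60 array and 8866 on the HL60 array, a difference of 0.31. DUSP4, an ERK phosphatase of the nucleus, had 907 on the R-HL60 array and 594 on the HL60 array, a difference of 0.60, whereas its relative DUSP5 had 200 on the R-HL60 array and 274 on the HL60 array, a difference of -0.46. The Sprouty genes SPRY1 and SPRY2 differed by 0.12 and -0.15.

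Of 15 ERK-responsive target genes, 14 were above the floor and 0 were past 2-fold on their brightest probe, beside 1.08% of all genes. The median difference was -0.14. FOSL1, a subunit of the AP-1 transcription factor, had 388 on the R-HL60 array and 723 on the HL60 array, a difference of -0.91. EGR1, an immediate early factor, had 2051 on the R-HL60 array and 3236 on the HL60 array, a difference of -0.67. IER3 had 319 on the R-HL60 array and 173 on the HL60 array, a difference of 0.88, with 1.14, past 2-fold, on its other probe. MYC differed by -0.42, and by -0.34 on its other measured probe. Protein phosphorylation was not measured.

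Other receptor tyrosine kinase genes were listed too. Since the family was chosen with the FGFR1 difference known, nothing is read from setting them beside FGFR1. Of 48 such genes outside the family 25 were above the floor on at least 1 array. At least 2-fold different were 0, near the 1.08% of all genes, and the median was -0.06 over the 22 above the floor on both. The largest difference was that of the neurotrophin receptor gene NTRK2, at 0.69, with 60.7 on the R-HL60 array and 37.4 on the HL60 array, close to the floor. The next was the ephrin receptor gene EPHB4, at 0.51. The receptor genes RYK, IGF1R and LTK differed by -0.15, -0.11 and -0.05 on their brightest probes, and the other measured probe of LTK gave -0.49.

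**Figure D4:**
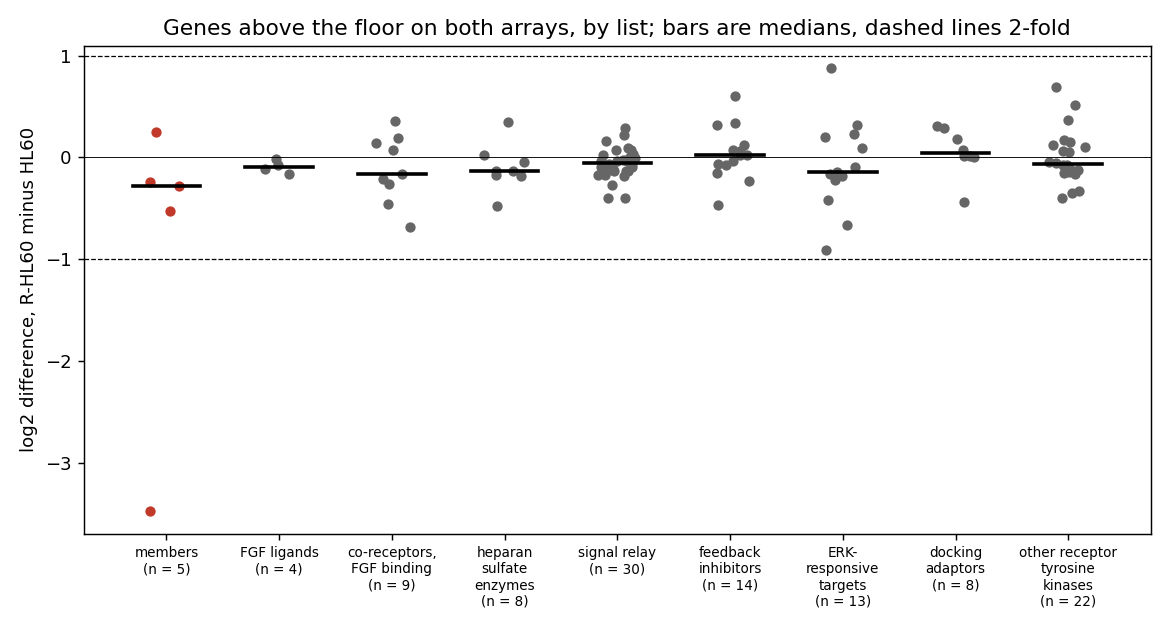
log2 difference (R-HL60 minus HL60) of each gene above the floor on both arrays, for the family (red) and for 8 lists of other genes (grey), with black bars at the medians. FGFR1 at -3.48 is the one point outside the 2-fold lines, and the 8 lists run from -0.91 for FOSL1 to 0.88 for IER3.

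The labelled cell type was checked against its markers. All 10 promyelocyte genes listed were above the floor on both arrays, with MPO at 285746 in R-HL60 and 309491 in HL60. Of the 10, 9 were lower in R-HL60, with a median of -0.16 over the list. Over all genes above the floor on both arrays more were lower than higher too, but with a median of -0.03. MYB, at -0.06 on its brightest probe, was within the probe-to-probe SD of 0.12, and MPO, at -0.12, was near it. CTSG, at -0.19, and CD33, at -0.18 on its brightest probe, were past that SD, and SPI1 was higher, at 0.08. ELANE was the 1 gene past 2-fold, at -2.20, where 0.297% of all genes were at least 2-fold lower. The proteinase 3 gene PRTN3 differed by -0.80, with 18985 in R-HL60 and 32955 in HL60, and the transcription factor gene CEBPA by -0.46. FGFR1 is also expressed in fibroblasts and other stromal cells, and of 14 markers of these cells 4 were above the floor on at least 1 array. COL5A1 had 89.8 on the R-HL60 array and 52.7 on the HL60 array, a difference of 0.76. COL6A1 and PDGFRB, also above the floor on both arrays, differed by 0.15 and 0.17, and DCN was above it on the R-HL60 array only. The other 10, among them COL1A1, COL1A2 and COL3A1, were below it on both. The unscaled signals of all 14 summed to 377 on the R-HL60 array and 310 on the HL60 array, and the part of such cells in the FGFR1 difference was not tested. Of 8 endothelial markers 5 were above the floor on at least 1 array, and all 8 summed to 502 in R-HL60 and 523 in HL60. Of 8 epithelial markers 4 were, and all 8 summed to 2119 in R-HL60 and 1919 in HL60. Most of that came from KRT8, with 936 in R-HL60 and 819 in HL60, and KRT18, with 867 in R-HL60 and 807 in HL60. KRT19 differed by 0.78 and CLDN4 by -0.15, and EPCAM, CDH1, KRT5 and KRT14 were below the floor on both arrays. In either list 0 were past 2-fold, beside 1.08% of all genes. With RNA from whole cultures, fewer cells with FGFR1 transcript and less transcript per cell cannot be told apart.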

How the data were processed

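Per the labels' protocols, total RNA was amplified, labelled with Cy3 and hybridised to 1-colour Agilent arrays, 1 for R-HL60 and 1 for HL60. Per the submitters' processing notes, signals came from Agilent Feature Extraction 10.7.3.1. The authors deposited 1 linear intensity per probe and array, with gene names and no flags, and a table of normalized intensities. The sources used here give neither the background treatment nor the normalization method. At each rank the normalized values differed by at most 1.06% from the average of both raw arrays.

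From the deposited intensities, log2 values minus each array's 75th percentile were computed, with a floor at the array's median. A gene above it on 1 array has a bound, taken against its own value or the floor, whichever was higher. No test was possible with 1 array per line, and the number of arrays limits the precision. File names were matched to RefSeq symbols, with 21081 current and 1567 older unique names of 43317. The members and the 14 gene lists were chosen with earlier results of these data known. Named genes were all members, from each list up to 5 genes past 2-fold or else the 2 largest differences, and the 4 brightest. Of these, those that bear on a result are given. Neighbours, the nearest genes to FGFR1, and genes named after their values were seen were added. In simulated arrays for R-HL60 over HL60 (43270 genes), 99 of 100 genes changed 2.5-fold, 100 of 100 changed 4-fold and 1 of 23042 unchanged genes were called. The variation between cultures and arrays is not known from 1 array per line, so these rates do not carry over to the real arrays. Python 3.11.15, numpy 2.4.6, pandas 2.3.3, statsmodels 0.14.6 and matplotlib 3.10.9 were used.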

Additional observations from a re-analysis of the deposited data

How the results depend on the processing

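FGFR1 was the 1 member at least 2-fold different under all 11 other settings: the authors' table, loess by brightness, quantile normalization, scaling to the median, floors at the 40th and 60th percentile, an offset of 50 units, the mean of all probes, the mean of probes above the floor on at least 1 array (added after seeing the data), and thresholds of 1.5-fold and 3-fold. Its log2 difference was -2.76 (6.77-fold lower in R-HL60) with the offset and a bound of -1.23 with the mean of all probes, which includes the probe below the floor on both arrays. It ran from -3.57 to -3.33 in the other 7 settings that give a value. FGFR2, FGFR4, FGFRL1 and FRS2 kept their direction in the settings that put them above the floor (FGFR2 was below it with the 60th percentile and with the mean of all probes), with differences from 0.12 to 0.25, -0.37 to -0.19, -0.62 to -0.49 and -0.34 to -0.20. Of the pathway lists from ligands to ERK-responsive targets, 0 genes were past 2-fold, 1 with either mean of probes (IER3), and 5 past 1.5-fold. Over all genes, 70 were lower and 185 higher, against 40 and 66 with the offset, 109 and 346 with the floor at the 40th percentile, 50 and 102 at the 60th, 324 and 831 past 1.5-fold and 29 and 45 past 3-fold. No paired analysis was possible because each line has 1 array. Signals near the floor limit FGFR2, and FGFR3, FGF2 and FRS3 have no measured difference. The R-HL60 signal of FGFR1, 66.0, was just above the 60th percentile of its array, 64.7, so the size of its fold rests on a low signal.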

Other observations

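Transcripts named after the family or lying opposite its genes had the following values. NUDT6, which overlaps FGF2 on the opposite strand, had 2355 on the R-HL60 array and 2442 on the HL60 array, a log2 difference of -0.06, while FGF2 itself was below the floor on both. The non-coding transcript lnc-FGFR4-1 had 96.8 on the R-HL60 array and 97.9 on the HL60 array, a difference of -0.03. The transcript lnc-FGFR2-2 had 17.2 on the R-HL60 array and 2.04 on the HL60 array, both below the floor.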
